A study of Homo sapiens with 12 samples.

Results

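The core circadian clock genes described here are PER1, PER2, PER3, CRY1, CRY2, ARNTL, CLOCK, NR1D1 and NR1D2, 9 of the 58735 genes in the deposited table. They were taken by gene symbol, and the family was chosen by its PER1 values, since PER1 had been seen among the largest rises in the KYSE180 comparison. Values of that comparison are therefore given as a description with no test. Total RNA was sequenced in bulk from KYSE180 and KYSE150, established human lines of oesophageal squamous cell carcinoma, in 12 libraries. The groups are KYSE180 with CDCA7 overexpression, native KYSE180 control cells, KYSE150 carrying shCDCA7, a short hairpin RNA that targets CDCA7, and native KYSE150 control cells, with 3 libraries each. All were grown in RPMI-1640 with fetal bovine serum and harvested with trypsin. The labels give the control genotype as WT and name no empty-vector or scrambled-hairpin control, so the construct and its delivery cannot be told apart from the change in CDCA7. They give no time of harvest and no synchronisation of the cells, and nothing in them makes the replicates separate cultures. The p-values below therefore cover the variation among these libraries alone, some or all of it possibly technical. The series title names the question of whether CDCA7, a zinc finger protein of the cell cycle, promotes TGF-β-induced epithelial-mesenchymal transition. The clock genes are no stated aim.

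The circadian clock is a transcriptional feedback loop. CLOCK and ARNTL (also called BMAL1) bind E-box sequences as a pair and activate the PER and CRY genes, whose proteins return to the nucleus and repress that pair. NR1D1 and NR1D2, which encode the nuclear receptors REV-ERBα and REV-ERBβ, are activated through E-boxes too and repress ARNTL, while DBP and its relatives act on D-boxes in several clock promoters. Cultured cells hold rhythms that drift out of phase with each other unless they are synchronised, for example by serum or glucocorticoid, and PER1 is also known as an immediate-early gene of cAMP and glucocorticoid signalling.

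To show the elements through which these genes are known to be driven, promoters were read from RefSeq (GRCh38.p14), as 250 bases before to 50 bases after each annotated start. All 9 genes matched, ARNTL under the symbol BMAL1, with 14 windows in all. The 4 windows below are from PER1, PER2, NR1D1 and NR1D2. Each is written 5′ to 3′ on the gene's own strand, and capitals mark an E-box (CACGTG), the related E′-box (CACGTT) or a D-box (TTATGTAA or TTACGTAA), each searched on both strands. PER1 is at chr17:8152355-8152654 on the minus strand, PER2 at chr2:238288561-238288860 on the minus strand, NR1D1 at chr17:40100540-40100839 on the minus strand, and the window of the second NR1D2 start at chr3:23945871-23946170 on the plus strand.

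PER1: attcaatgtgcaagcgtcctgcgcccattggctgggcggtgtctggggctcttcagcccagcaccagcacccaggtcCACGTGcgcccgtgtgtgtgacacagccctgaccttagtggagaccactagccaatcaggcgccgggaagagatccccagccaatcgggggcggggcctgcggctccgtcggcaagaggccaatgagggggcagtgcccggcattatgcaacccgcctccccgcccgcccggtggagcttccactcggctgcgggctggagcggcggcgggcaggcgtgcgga

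PER2: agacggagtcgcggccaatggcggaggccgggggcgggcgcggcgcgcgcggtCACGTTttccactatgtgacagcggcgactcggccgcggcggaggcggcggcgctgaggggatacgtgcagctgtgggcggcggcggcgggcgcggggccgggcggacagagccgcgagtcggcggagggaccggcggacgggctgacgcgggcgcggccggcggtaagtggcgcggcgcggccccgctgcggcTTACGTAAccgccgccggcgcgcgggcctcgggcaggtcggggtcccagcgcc

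NR1D1: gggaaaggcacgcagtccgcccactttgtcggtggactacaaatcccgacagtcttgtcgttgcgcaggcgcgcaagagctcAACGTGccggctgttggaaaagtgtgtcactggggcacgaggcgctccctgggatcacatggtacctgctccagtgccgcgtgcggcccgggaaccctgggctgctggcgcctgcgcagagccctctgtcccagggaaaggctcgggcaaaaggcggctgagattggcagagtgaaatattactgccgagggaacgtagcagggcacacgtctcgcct

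NR1D2: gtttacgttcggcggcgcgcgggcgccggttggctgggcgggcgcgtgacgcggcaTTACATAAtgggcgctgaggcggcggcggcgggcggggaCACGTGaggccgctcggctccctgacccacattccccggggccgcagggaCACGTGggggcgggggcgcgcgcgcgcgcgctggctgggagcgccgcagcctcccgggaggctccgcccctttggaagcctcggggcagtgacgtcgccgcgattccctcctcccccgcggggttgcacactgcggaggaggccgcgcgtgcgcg

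The PER1 window held an E-box whose first base was at position -173 from the start, and the NR1D2 window held E-boxes at -155 and -105 and a D-box at -194. The window of the other NR1D2 start, not printed, held no E-box, E′-box or D-box. The PER2 window held an E′-box at -197 and a D-box across the start, and the NR1D1 window held an E′-box at -168. Among the 14 windows, 2 held an E-box, 5 an E′-box and 3 a D-box. Of 35116 RefSeq promoters of the same length, 7.26% held the E-box, 5.34% the E′-box and 1.01% the D-box. The AGGTCA site that ROR and REV-ERB receptors read was in 4 of the 14 windows, among them PER1 and ARNTL, and in 13.8% of all promoters. The full cAMP response element TGACGTCA was in 0 of the 14 windows and 1.85% of all promoters, and the AGAACA core of the glucocorticoid element was in 0 of the 14 windows and 14.8% of all promoters. No match overlapped another. A match describes the letters of the window only and says nothing of binding. An absent match covers the bases of the window alone and says nothing of elements at other starts or further away.

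The libraries held between 16.3 M and 19.6 M reads assigned to genes, and values are FPKM, fragments per kilobase of gene, scaled for library size. The targeted gene moved as labelled. CDCA7 was at 44.6, 59.1 and 57.9 FPKM in overexpression libraries and 24.0, 18.2 and 17.4 FPKM in KYSE180 controls, and at 9.24, 10.1 and 8.83 FPKM in shCDCA7 libraries and 27.4, 25.6 and 25.6 FPKM in KYSE150 controls. All 6 squamous epithelial markers (KRT5, KRT14, KRT6A, TP63, CDH1 and EPCAM) exceeded 1 FPKM in every library. Their summed level was 3495 to 4031 FPKM with overexpression, 1565 to 3260 FPKM in KYSE180 controls, 588 to 680 FPKM with shCDCA7 and 409 to 426 FPKM in KYSE150 controls. Summed levels of 6 fibroblast markers stayed at or under 5.50 FPKM. Those of 6 leukocyte markers stayed at or under 0.82 FPKM and those of 6 endothelial markers at or under 1.62 FPKM. COL1A1 of the fibroblast list exceeded 1 FPKM in every KYSE180 library, averaging 4.93 FPKM with overexpression and 4.12 FPKM in KYSE180 controls. The myeloid marker LYZ was at 0 in every library, the endothelial marker KDR in every library of 3 of the 4 groups, and the fibroblast marker COL1A2 in every KYSE180 library. The share of reads from mitochondrial genes was 8.39% ± 0.367 with overexpression and 5.45% ± 0.837 in KYSE180 controls, and 7.39% ± 3.34 with shCDCA7 and 4.09% ± 0.0627 in KYSE150 controls (SD, n = 3 each). Its part in the results was not tested. The shCDCA7 replicate 2 stood apart, with 11.2% mitochondrial reads and a correlation across genes of 0.962 and 0.964 with replicates 1 and 3, which correlated with each other at 0.996.

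All 9 clock genes were expressed above the filter on low reads in both lines (10 or more reads in 3 or more libraries after scaling to the median depth, and 15 or more in all). In KYSE180 controls NR1D2 was highest at 16.7 ± 2.29 FPKM, and the other 8 genes lay between 2.27 ± 0.179 FPKM for CLOCK and 4.55 ± 0.543 FPKM for NR1D1 (SD, n = 3). Every neighbouring pair among those 8 overlapped in its libraries. In KYSE150 controls the order was NR1D2, NR1D1, PER1, CLOCK, CRY1, CRY2, PER2, ARNTL and PER3, between 21.5 ± 1.30 FPKM and 0.304 ± 0.0445 FPKM, and no neighbours overlapped. With CDCA7 overexpression PER1 stood beside NR1D2, at 25.0 ± 4.77 and 25.7 ± 1.86 FPKM with overlapping libraries. With shCDCA7, NR1D2, PER1 and NR1D1 were the 3 highest and each overlapped the next, at 32.5 ± 8.08, 27.9 ± 8.57 and 26.1 ± 4.83 FPKM.

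**Figure D1:**
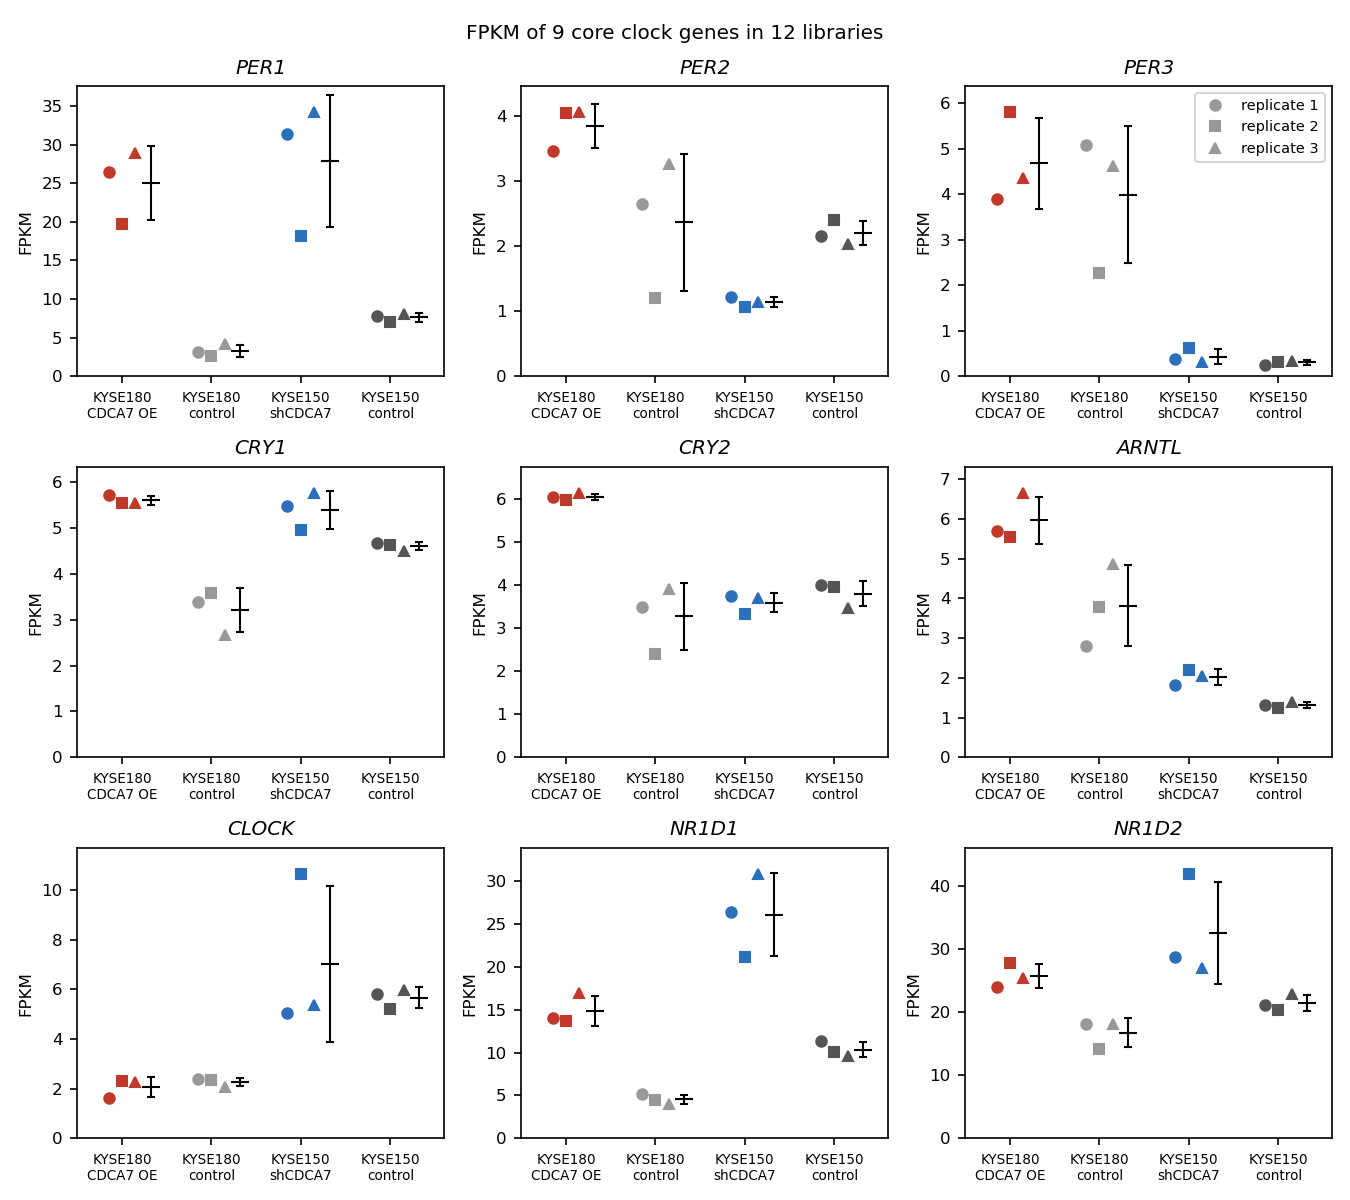
FPKM of each of the 9 clock genes (vertical axes, a separate scale per gene) in the 4 groups of 3 libraries, where OE is overexpression. Points are libraries, their shape gives the replicate number, and bars are means with SD. PER1 and NR1D1 lie above their controls in all 3 libraries of either construct, and PER2 lies above its controls with overexpression and below them with shCDCA7.

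The period genes encode the repressors that return to the nucleus with the cryptochromes. PER1 (ENSG00000179094, chr17:8140472-8156506, minus strand, GENCODE 29 on GRCh38) was at 26.4, 19.7 and 28.9 FPKM in overexpression libraries, against 3.08, 2.62 and 4.12 FPKM in KYSE180 controls. It was at 31.4, 18.1 and 34.2 FPKM in shCDCA7 libraries, against 7.81, 7.0 and 8.03 FPKM in KYSE150 controls. Every library carrying a construct was thus above every control of its line, and the groups did not overlap in either line. In bulk RNA a larger share of cells with the transcript and more transcript per cell cannot be told apart. The ratio of mean FPKM was 7.63 in KYSE180 and 3.66 in KYSE150. On the log2(FPKM + 1) scale, which understates changes of low genes, the difference was 2.60 ± 0.19 (SE) in KYSE180. In KYSE150 PER1 rose by 1.70 ± 0.23 (SE; adjusted p = 0.00696, limma-trend over all tested genes with Benjamini-Hochberg adjustment, two-sided, as for every adjusted p here). PER1 was read deeply enough for counting error to be small, with between 341 and 4205 reads per library.

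PER2 (chr2:238244038-238290102, minus strand) went the other way in KYSE150. It was at 3.45, 4.03 and 4.05 FPKM in overexpression libraries, against 2.64, 1.21 and 3.25 FPKM in KYSE180 controls, a difference of 0.58 ± 0.24 on the log2 scale. The KYSE180 groups did not overlap, although the nearest libraries were close. Without KYSE180 control replicate 2 the difference was 0.30. PER2 was at 1.21, 1.06 and 1.14 FPKM in shCDCA7 libraries, against 2.15, 2.39 and 2.04 FPKM in KYSE150 controls. It fell by 0.58 ± 0.09 in KYSE150 (log2 scale, SE; adjusted p = 0.00947), with all 3 shCDCA7 libraries below all 3 controls. That call held in 7 of 12 alternative settings, with adjusted p between 0.00111 and 0.0638. It was lost without KYSE150 control replicate 1 or 2, with no filter on low reads, with a replicate term and in the fit of all 12 libraries.

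PER3 (chr1:7784320-7845177, plus strand) overlapped its controls in both lines. It was at 3.89, 5.79 and 4.35 FPKM in overexpression libraries and 5.07, 2.27 and 4.62 FPKM in KYSE180 controls, a log2 difference of 0.22 ± 0.25. In shCDCA7 libraries it was at 0.375, 0.614 and 0.309 FPKM and in KYSE150 controls at 0.254, 0.318 and 0.340 FPKM, a log2 difference of 0.13 ± 0.09 (adjusted p = 0.330) that rests on 44 to 68 reads per library. PER3 shares exon bases with UTS2 (10.7% of its exon bases) and with an antisense gene (5.95%), which were at or under 0.113 and 1.12 FPKM.

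PER1 took a larger share of the period transcripts in every library with a construct than in any control of its line. It made up 74.2% ± 6.46 of the summed PER1, PER2 and PER3 FPKM with overexpression and 35.3% ± 7.28 in KYSE180 controls (SD, n = 3 each). It made up 94.2% ± 2.35 with shCDCA7 and 75.2% ± 2.75 in KYSE150 controls. The summed level was 33.5 ± 3.90 FPKM with overexpression and 9.63 ± 3.12 FPKM in KYSE180 controls, and 29.5 ± 8.47 FPKM with shCDCA7 and 10.1 ± 0.357 FPKM in KYSE150 controls. The sums of the 2 control groups overlapped but came from different genes, with PER3 prominent in KYSE180 and nearly all of the sum from PER1 and PER2 in KYSE150.

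**Figure D2:**
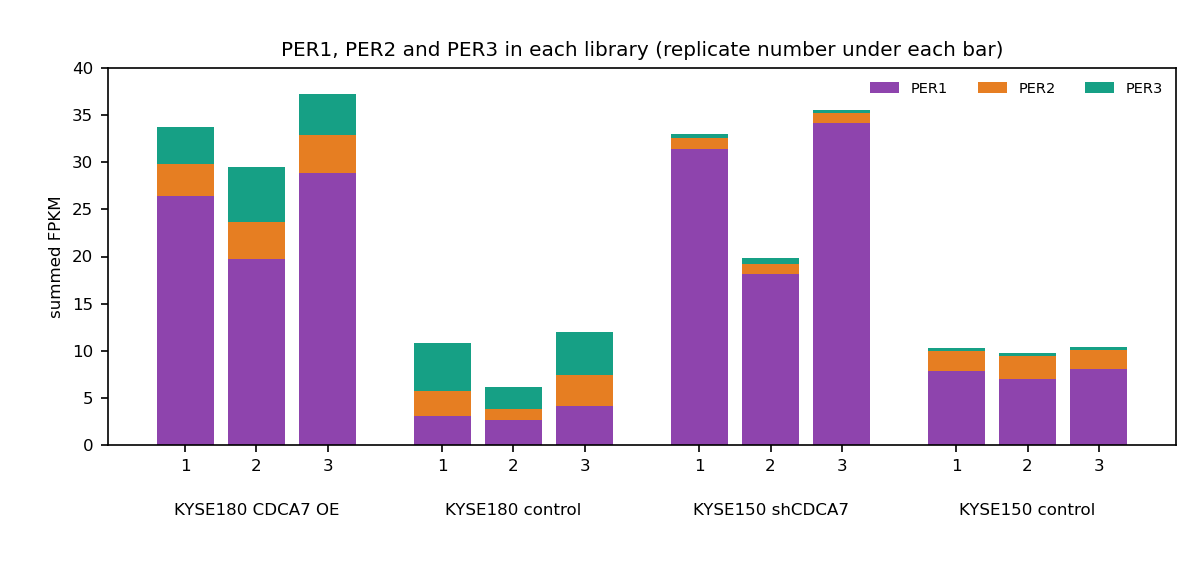
Summed FPKM of PER1, PER2 and PER3 in each library (vertical axis, stacked bars from 0), grouped as overexpression (OE) and control in KYSE180 and shCDCA7 and control in KYSE150. The 6 libraries with a construct reach 19.8 to 37.3 FPKM and the 6 controls 6.09 to 11.99 FPKM, and the PER1 segment makes most of the gap.

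The cryptochromes are the stronger repressors of CLOCK and ARNTL. CRY1 (chr12:106991364-107093829, minus strand) was at 5.72, 5.53 and 5.55 FPKM in overexpression libraries, against 3.39, 3.57 and 2.67 FPKM in KYSE180 controls, a log2 difference of 0.66 ± 0.13. CRY2 (chr11:45847118-45883248, plus strand) was at 6.04, 5.98 and 6.14 FPKM in overexpression libraries, against 3.49, 2.41 and 3.92 FPKM in KYSE180 controls, a log2 difference of 0.74 ± 0.16. Both were higher in all 3 overexpression libraries than in any control, and their overexpression libraries lay close together. In KYSE150 neither passed the test. CRY1 was at 5.47, 4.95 and 5.75 FPKM in shCDCA7 libraries and 4.68, 4.62 and 4.5 FPKM in KYSE150 controls, without overlap, with a log2 difference of 0.19 ± 0.10 (adjusted p = 0.230). Without shCDCA7 replicate 2 the CRY1 difference was 0.24 (adjusted p = 0.0139), in a fit that called 7982 of the 14342 tested genes. Under scaling to library totals the CRY1 difference was -0.03. CRY2 was at 3.74, 3.34 and 3.72 FPKM in shCDCA7 libraries and 4.0, 3.95 and 3.48 FPKM in KYSE150 controls, which overlap, with a log2 difference of -0.06 ± 0.11 (adjusted p = 0.701).

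CLOCK and ARNTL form the activator. ARNTL (chr11:13276652-13387266, plus strand) was at 5.70, 5.54 and 6.64 FPKM in overexpression libraries, against 2.81, 3.78 and 4.86 FPKM in KYSE180 controls, a log2 difference of 0.55 ± 0.18 with no overlap. It was at 1.81, 2.21 and 2.05 FPKM in shCDCA7 libraries, against 1.32, 1.24 and 1.39 FPKM in KYSE150 controls, and rose by 0.38 ± 0.09 (log2 scale, SE; adjusted p = 0.0334). The KYSE150 groups did not overlap, but the call was close to the threshold and held in 3 of 12 alternative settings, with adjusted p between 0.00757 and 0.152. Leaving out shCDCA7 replicate 1 or 3, or any KYSE150 control replicate, ended it.

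CLOCK (chr4:55427903-55547138, minus strand) overlapped its controls in both lines. It was at 1.62, 2.31 and 2.28 FPKM in overexpression libraries and 2.39, 2.36 and 2.06 FPKM in KYSE180 controls, a log2 difference of -0.10 ± 0.14. It was at 5.03, 10.6 and 5.36 FPKM in shCDCA7 libraries and 5.83, 5.21 and 5.98 FPKM in KYSE150 controls, a log2 difference of 0.20 ± 0.26 (adjusted p = 0.615). The single high value belongs to shCDCA7 replicate 2, and without that library the difference was -0.11.

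NR1D1 (chr17:40092787-40100725, minus strand), the haem-binding repressor REV-ERBα, was the other gene that was higher under either construct by more than 1 on the log2 scale. It was at 14.0, 13.7 and 16.9 FPKM in overexpression libraries, against 5.12, 4.49 and 4.04 FPKM in KYSE180 controls, a ratio of means of 3.27 and a log2 difference of 1.52 ± 0.14. It was at 26.4, 21.1 and 30.8 FPKM in shCDCA7 libraries, against 11.3, 10.1 and 9.60 FPKM in KYSE150 controls, a ratio of means of 2.52. In KYSE150 it rose by 1.24 ± 0.15 (log2 scale, SE; adjusted p = 0.00531). No group overlapped its control. PER1 and NR1D1 kept their KYSE150 call in all 12 alternative settings, with the highest adjusted p at 0.0490 for PER1 and 0.0418 for NR1D1.

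NR1D1 ends inside THRA, the thyroid hormone receptor α gene on the opposite strand, and the 2 genes share 263 exon bases, 9.49% of the exon bases of NR1D1. How the counting treated strand is not stated in the sources used here, so reads in those bases cannot be told apart between the genes. THRA was at 13.1, 12.2 and 13.6 FPKM in overexpression libraries, against 5.58, 6.82 and 6.87 FPKM in KYSE180 controls, a log2 difference of 0.92 ± 0.12 (adjusted p = 0.0134). It was at 3.77, 1.98 and 3.47 FPKM in shCDCA7 libraries, against 4.02, 4.09 and 3.68 FPKM in KYSE150 controls, with a log2 difference of -0.30 ± 0.19 (adjusted p = 0.301). THRA was called higher in KYSE180, where NR1D1 was higher too, and did not pass in KYSE150, where NR1D1 was called higher. The part of the shared bases in the NR1D1 values was not tested in either line.

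NR1D2 (chr3:23945260-23980618, plus strand), which encodes REV-ERBβ, had the highest mean FPKM of the 9 genes in every group. It was at 24.0, 27.7 and 25.4 FPKM in overexpression libraries, against 18.1, 14.1 and 18.1 FPKM in KYSE180 controls, a log2 difference of 0.60 ± 0.13. It was at 28.8, 41.8 and 27.0 FPKM in shCDCA7 libraries, against 21.1, 20.4 and 22.9 FPKM in KYSE150 controls, with a log2 difference of 0.55 ± 0.17 that did not pass (adjusted p = 0.0656). The groups did not overlap in either line. Without shCDCA7 replicate 2, the highest library, the KYSE150 difference was 0.36 (adjusted p = 0.00194), a smaller difference with a smaller spread. The NR1D1 level relative to NR1D2 was 0.581 ± 0.0853 with overexpression and 0.275 ± 0.0479 in KYSE180 controls, and 0.853 ± 0.321 with shCDCA7 and 0.484 ± 0.0599 in KYSE150 controls (ratio of FPKM, SD, n = 3 each). In shCDCA7 replicate 2 it was 0.505, inside the range of KYSE150 controls of 0.419 to 0.537.

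As a description of the KYSE180 values, and not as a test of the family, 5 of 9 genes lay past the threshold on the higher side (PER1, NR1D1, CRY2, CRY1 and NR1D2) and 0 on the lower side. In the same fit 9.08% of 15944 tested genes were called, 4.65% higher and 4.43% lower. The groups did not overlap for 7 of 9 members, against 35.1% of all tested genes, and the median difference was 0.60 for the members and -0.005 for all tested genes. Nothing is read from these KYSE180 counts, since these values led to the choice of the family. In KYSE150, 3 of 9 rose (PER1, NR1D1 and ARNTL) and PER2 fell, where 10.0% of 14342 tested genes rose and 9.86% fell, 19.9% in all. The groups did not overlap for 6 of 9 members, against 47.8% of all tested genes, and the median difference was 0.20 for the members and 0.002 for all tested genes. Without shCDCA7 replicate 2, 6 of 9 members were called, in a fit that called 7982 of the 14342 genes. Scaling to library totals instead of the deposited size factors moved the median of all tested genes to -0.08 in KYSE180 and -0.16 in KYSE150. The calls were then 502 higher and 1229 lower in KYSE180, against 741 higher and 706 lower as deposited, and 776 higher and 3015 lower in KYSE150, against 1440 higher and 1414 lower.

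**Figure D3:**
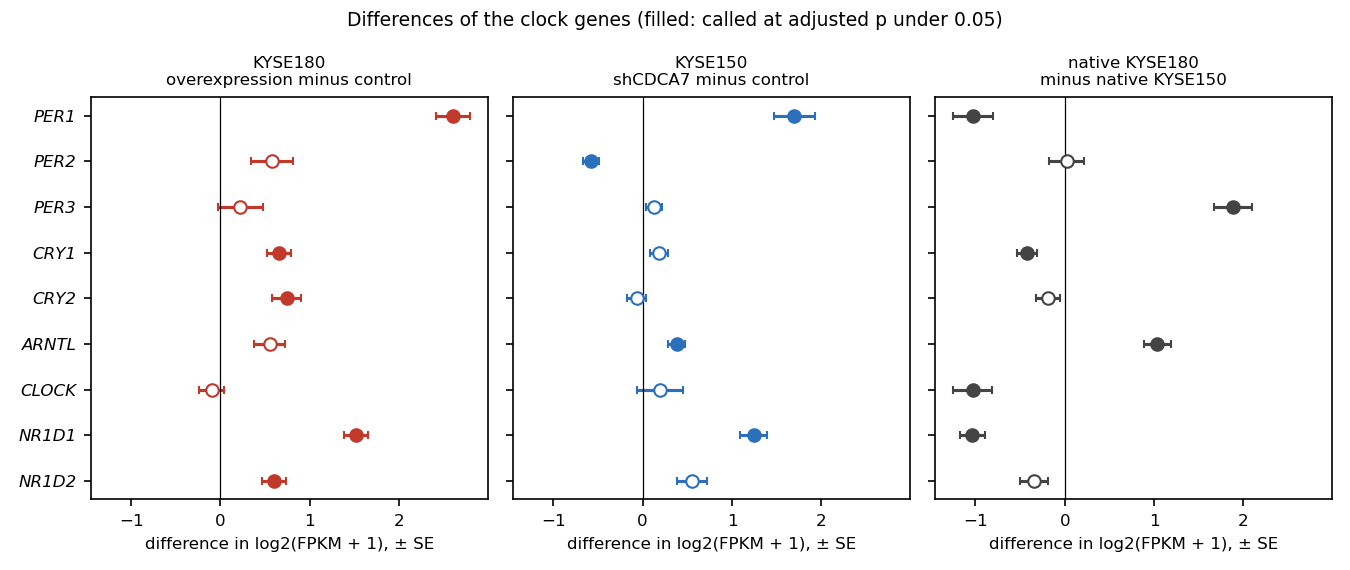
Difference in log2(FPKM + 1) with its SE (horizontal axis) for the 9 clock genes in KYSE180 (overexpression minus control), KYSE150 (shCDCA7 minus control) and between the native lines (KYSE180 minus KYSE150). Filled points passed an adjusted p of 0.05 over all tested genes, and the KYSE180 panel holds the values that led to the choice of the family. The PER1 point of the native panel shares the KYSE180 controls, so its fill is a description too. PER1 and NR1D1 lie furthest to the right in the first 2 panels, and PER2 is the called gene left of 0 in the KYSE150 panel.

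CDCA7 was moved in opposite directions in the 2 lines, and the 2 comparisons share no library. PER1, NR1D1, NR1D2, ARNTL and CRY1 were higher than all controls of the line in every library of both constructs, although CRY1 changed sign in KYSE150 under scaling to library totals. Groups did not overlap, in either direction, for 35.1% of all tested genes in KYSE180 and 47.8% in KYSE150. The share of all genes higher in both lines was not counted, and the KYSE180 values led to the choice of the family. PER2 was the member whose libraries lay on opposite sides of their controls, all above with overexpression and all below with shCDCA7. Taken from a single fit of all 12 libraries, the overexpression difference minus the shCDCA7 difference was 1.15 ± 0.28 for PER2, 0.90 ± 0.32 for PER1, 0.80 ± 0.19 for CRY2 and 0.47 ± 0.16 for CRY1 (log2 scale, SE). It was 0.27 ± 0.20 for NR1D1, 0.17 ± 0.21 for ARNTL, 0.09 ± 0.30 for PER3, 0.04 ± 0.22 for NR1D2 and -0.29 ± 0.30 for CLOCK. These differences hold the KYSE180 values and carry no test.

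The native lines also differed in their clock genes. PER3 was higher in native KYSE180 by 1.88 ± 0.21 on the log2 scale (adjusted p = 1.56e-05), at 3.99 ± 1.51 FPKM in native KYSE180 and 0.304 ± 0.0445 FPKM in native KYSE150 (SD, n = 3 each). ARNTL was higher by 1.03 ± 0.15 (adjusted p = 0.000114), at 3.82 ± 1.02 FPKM in native KYSE180 and 1.32 ± 0.0757 FPKM in native KYSE150. Its partner CLOCK was lower in native KYSE180, with a difference of -1.03 ± 0.22 (adjusted p = 0.00164), at 2.27 ± 0.179 FPKM in native KYSE180 and 5.67 ± 0.405 FPKM in native KYSE150. The activator pair therefore stood in opposite proportions, with more ARNTL than CLOCK in native KYSE180 and more CLOCK than ARNTL in native KYSE150, by mean FPKM.

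NR1D1 was lower in native KYSE180, by a difference of -1.03 ± 0.14 (adjusted p = 8.34e-05), and CRY1 by -0.42 ± 0.11 (adjusted p = 0.00683). PER1 was lower in native KYSE180 too, at 3.28 ± 0.768 FPKM, against 7.61 ± 0.540 FPKM in native KYSE150, a difference of -1.02 ± 0.22 with no p given, since the same KYSE180 controls entered the comparison by which PER1 was noticed. NR1D2 at -0.35 ± 0.16 (adjusted p = 0.0782), CRY2 at -0.18 ± 0.14 (adjusted p = 0.264) and PER2 at 0.02 ± 0.20 (adjusted p = 0.927) did not pass. Leaving PER1 out, 2 of 8 members were called higher and 3 lower, where 33.4% of 17088 tested genes were called higher and 24.6% lower, 58.0% in all. The groups did not overlap for 6 of those 8, against 71.3% of all tested genes, so the members' counts are near those of the whole table.

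The other genes of the clock were read from 8 lists. Of all tested genes, 4.65% rose and 4.43% fell in KYSE180, and 10.0% rose and 9.86% fell in KYSE150. Of the PAR bZIP factors, which act on D-boxes, and their antagonist NFIL3, 2 of 4 tested genes rose in KYSE180 and 0 fell. DBP was at 18.1 ± 6.15 FPKM with overexpression and 3.62 ± 1.03 FPKM in KYSE180 controls (log2 difference 2.02, adjusted p = 0.0104), and TEF was at 16.6 ± 1.24 FPKM with overexpression and 8.13 ± 3.07 FPKM in KYSE180 controls (1.01, adjusted p = 0.0452). In KYSE150, 1 of 3 rose and 1 fell. NFIL3 was at 31.8 ± 0.685 FPKM with shCDCA7 and 13.0 ± 0.912 FPKM in KYSE150 controls (1.23, adjusted p = 0.00181), and TEF was at 2.82 ± 0.725 FPKM with shCDCA7 and 4.83 ± 0.168 FPKM in KYSE150 controls (-0.63, adjusted p = 0.0351). DBP, at 5.13 FPKM with shCDCA7 and 4.01 FPKM in KYSE150 controls, did not pass there (0.14, adjusted p = 0.838), although without shCDCA7 replicate 2 the difference was 0.64 (adjusted p = 0.000377). The KYSE180 call of DBP held in 8 of 12 alternative settings and that of TEF in 6, while the KYSE150 call of NFIL3 held in all 12 and that of TEF in 5.

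BHLHE40, a repressor that competes for E-boxes, rose in both lines. It was at 25.1 ± 2.19 FPKM with overexpression and 13.6 ± 1.85 FPKM in KYSE180 controls (0.85, adjusted p = 0.0195), and at 24.0 ± 3.55 FPKM with shCDCA7 and 11.5 ± 0.633 FPKM in KYSE150 controls (0.99, adjusted p = 0.00623). Its KYSE180 call held in 7 of 12 alternative settings and its KYSE150 call in all 12. It was the only gene of its list of 3 that was called in KYSE180, with 2 tested. BHLHE41, its paralogue, fell in KYSE150 (0.819 ± 0.249 FPKM with shCDCA7 and 1.71 ± 0.272 FPKM in KYSE150 controls, -0.58, adjusted p = 0.0274), a call that held in 5 of 12 settings. Among other activators of the loop (NPAS2, ARNTL2 and the ROR genes), ARNTL2, a paralogue of ARNTL, fell in KYSE180 (11.9 ± 0.626 FPKM with overexpression and 16.6 ± 1.13 FPKM in KYSE180 controls, -0.45, adjusted p = 0.0454) as 1 of 4 tested, a call that also held in 5 of 12. In KYSE150, 0 of 2 tested passed by limma-trend or limma-voom, and 0 reached an unadjusted p under 0.05.

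Further lists hold proteins that modify or accompany the clock proteins. Of the kinases and phosphatases, which set the stability of PER and CRY, 0 of 10 passed in KYSE180 by limma-trend or limma-voom (5 at an unadjusted p under 0.05), and 3 of 10 rose in KYSE150. These were PPP1CC (0.58, adjusted p = 0.0409), GSK3B (0.46, adjusted p = 0.0318) and CSNK2A1 (0.45, adjusted p = 0.0411), whose calls held in 6, 4 and 4 of 12 alternative settings. Of the ubiquitin ligases and deubiquitinases, 0 of 8 tested passed in KYSE180 by either tool (3 at an unadjusted p under 0.05), and in KYSE150 1 of 8 rose, SIAH2, a ligase of REV-ERBα (0.63, adjusted p = 0.0064), a call that held in 9 of 12. Of 12 clock-associated proteins, TIPIN fell in KYSE180 (-1.05, adjusted p = 0.0195), and of 11 tested in KYSE150 WDR5 fell (-0.55, adjusted p = 0.0147), calls that held in 7 and 8 of 12. Median differences of these 3 lists were 0.27, 0.18 and -0.13 in KYSE180, and 0.38, 0.21 and -0.17 in KYSE150.

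Lists of cAMP and glucocorticoid signalling, of which PER1 is a known target, were read as well. The part of either pathway in the PER1 values was not tested. Of 10 genes of cAMP and CREB signalling, 2 rose in KYSE180 and 0 fell. NR4A1, an immediate-early nuclear receptor, was at 7.28 ± 1.29 FPKM with overexpression and 2.69 ± 1.47 FPKM in KYSE180 controls (1.25, adjusted p = 0.0444), and its relative NR4A2 rose by 0.53 (adjusted p = 0.0351). In KYSE150, NR4A2 rose by 0.78 (adjusted p = 0.00851), and CRTC1, a CREB coactivator, fell by 0.58 (adjusted p = 0.00948). NR4A1 was at 7.84 ± 3.50 FPKM with shCDCA7 and 3.17 ± 0.438 FPKM in KYSE150 controls and did not pass (0.99, adjusted p = 0.0766), but did without shCDCA7 replicate 2 (1.38, adjusted p = 7.52e-05). The KYSE180 calls of NR4A1 and NR4A2 held in 4 and 5 of 12 alternative settings, and the KYSE150 calls of NR4A2 and CRTC1 in 10 and 9. The medians of that list were 0.01 in KYSE180 and 0.19 in KYSE150.

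Of the glucocorticoid receptor and its targets, 4 of 9 tested rose in KYSE180 and 0 fell, with a list median of 0.56. These were the phosphatase gene DUSP1 (1.41, adjusted p = 0.0086), the EGFR feedback inhibitor ERRFI1 (1.12, adjusted p = 0.0303), KLF9 (1.08, adjusted p = 0.0141) and the kinase gene SGK1 (0.60, adjusted p = 0.0372). Of all tested genes 4.65% rose there. FKBP5 (-0.38, adjusted p = 0.226), CEBPD (-0.19, adjusted p = 0.786) and MT2A (0.0005, adjusted p = 0.999) did not pass. Nor did TSC22D3 (0.56, adjusted p = 0.288) and the receptor gene NR3C1 (0.32, adjusted p = 0.137). In KYSE150, 2 of 8 rose and 0 fell, with a list median of 0.32, where 10.0% of all tested genes rose. Of those that did not pass, SGK1 (-0.36, adjusted p = 0.0554) and MT2A (-0.24, adjusted p = 0.236) were lower. NR3C1, TSC22D3, CEBPD and FKBP5 were higher without passing. ERRFI1 was at 27.8 ± 2.14 FPKM with shCDCA7 and 8.47 ± 0.332 FPKM in KYSE150 controls (1.60, adjusted p = 0.00166), and DUSP1 was at 20.4 ± 3.92 FPKM with shCDCA7 and 8.50 ± 0.545 FPKM in KYSE150 controls (1.16, adjusted p = 0.00619). The KYSE180 calls of DUSP1, ERRFI1, KLF9 and SGK1 held in 9, 7, 7 and 4 of 12 alternative settings, and the KYSE150 calls of ERRFI1 and DUSP1 in all 12. DUSP1 and ERRFI1 are also targets of growth factor signalling. With any 1 KYSE180 library left out, the number of genes called higher was between 0 and 5 on the glucocorticoid list and between 0 and 3 on the PAR bZIP list. Without shCDCA7 replicate 2, the KYSE150 fit called 4232 of 14342 tested genes higher and 3750 lower. Its calls numbered 5 higher on the kinase and phosphatase list and 6 lower and 1 higher on the clock-associated list. Its calls on the glucocorticoid list numbered 5 higher and 1 lower. The calls of that fit numbered 4 higher and 2 lower on the cAMP list, and 2 higher and 1 lower on the PAR bZIP list. They numbered 2 higher and 1 lower on the ubiquitin list, 1 higher and 1 lower among E-box repressors, and 0 higher and 1 lower among other activators.

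**Figure D4:**
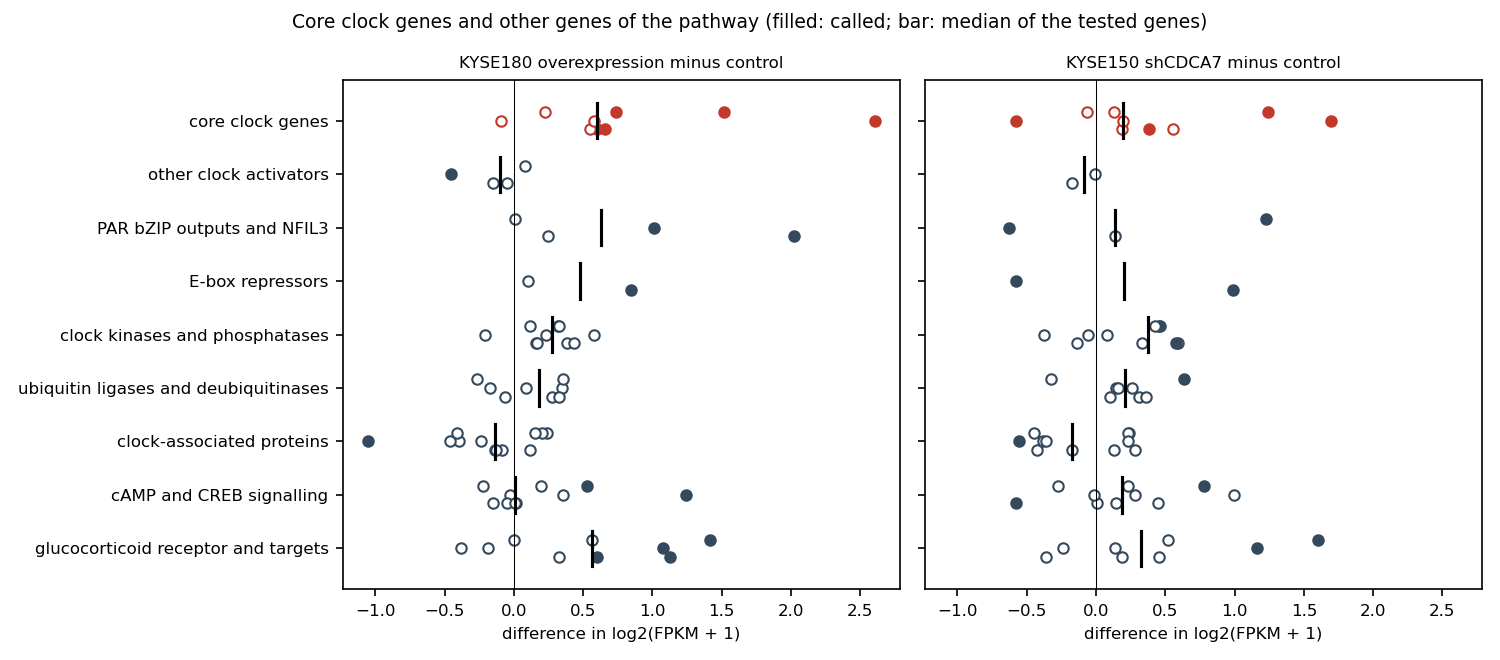
Difference in log2(FPKM + 1) (horizontal axis) of each tested gene of the core clock and of 8 further lists (rows), for overexpression minus control in KYSE180 and shCDCA7 minus control in KYSE150. Filled points passed an adjusted p of 0.05, and bars are medians of the tested genes. The core clock row of the KYSE180 panel holds the values that led to the choice of the family. Its filled points are a description with no test. The rightmost points of the other lists are DBP in KYSE180 and ERRFI1 in KYSE150.

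Between the native lines 58.0% of all tested genes were called. On the lists, called genes among those tested were 3 of 4 other activators, 3 of 4 PAR bZIP factors, 2 of 3 E-box repressors, 6 of 10 kinases and phosphatases, 3 of 8 ubiquitin ligases and deubiquitinases, 8 of 12 clock-associated proteins, 4 of 10 cAMP genes and 5 of 9 glucocorticoid genes. SIAH2 was higher in native KYSE180 by 1.77 (adjusted p = 4.04e-08) and NFIL3 by 1.04 (adjusted p = 0.000555). BHLHE41 was lower in native KYSE180, with a difference of -1.41 (adjusted p = 2.66e-07), at 0.0177 ± 0.0153 FPKM in native KYSE180 and 1.71 ± 0.272 FPKM in native KYSE150.

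PER1 had the largest absolute change of the family in either line, and the genes with the most similar profile to it were sought among 10059 genes tested in both lines whose average log2 CPM was 3 or more. Likeness was the root mean square difference of log2(FPKM + 1) over the 12 libraries after centring each gene within each line. The 5 nearest were DDIT3 (0.43), GADD45B (0.44), NGFR (0.46), PIM1 (0.47) and DUSP1 (0.50). DDIT3, a stress-induced transcription factor, averaged 28.5 FPKM with overexpression, 8.61 FPKM in KYSE180 controls, 26.3 FPKM with shCDCA7 and 11.2 FPKM in KYSE150 controls. PIM1, a kinase gene, averaged 36.2 FPKM with overexpression, 13.1 FPKM in KYSE180 controls, 100.4 FPKM with shCDCA7 and 24.8 FPKM in KYSE150 controls. These genes were selected for their likeness, which is a description over 12 libraries with no test.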

How the data were processed

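Bulk RNA sequencing of 12 libraries was analysed from a deposited table holding a value for each gene and library, and each of the 12 columns matched 1 label (0 columns were left unmatched). Per the submitters' processing notes the authors aligned reads with HISAT2 2.0.5 and used DESeq2 1.20.0, with mm10, a mouse build, as the genome, whereas all 58735 genes match human GENCODE 29 positions on GRCh38. Which tool counted the reads is not stated in the sources used here. The deposited values are FPKM scaled by size factors, and whole reads were recovered from them for 100% of values above 0 (tolerance 0.01 reads). They served only for the filter, depth and limma-voom. Library totals of 16.3 M to 19.6 M limit counting error only.

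Each line was fitted alone with limma-trend (limma 3.58.1, R 4.3.3, with the package data.table, version 1.17.8) on log2(FPKM + 1), with Benjamini-Hochberg adjustment over all tested genes and a threshold of 0.05. The native comparison and the differences between lines came from 1 fit of all 12 libraries. A gene was tested with 10 or more reads in 3 or more libraries after scaling to the median depth, and 15 or more in all. Alternatives were another added value, no filter, library totals, limma-voom, a replicate term, another set of fitted libraries and leaving out each library. The members, lists and tests were chosen with earlier results of these data known. Named genes were all members, CDCA7, THRA, up to 4 called genes per list and direction by size, and the 5 nearest profiles; fewer are printed for the native lines.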

Additional observations from a re-analysis of the deposited data

Results flagged for a closer look

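PER2 was higher than every control in all 3 overexpression libraries of KYSE180 and lower than every control in all 3 shCDCA7 libraries of KYSE150. Groups did not overlap, in either direction, for 35.1% of all tested genes in KYSE180 and 47.8% in KYSE150. In the KYSE180 description PER2 did not lie past the threshold, in the main fit or in any of 12 alternative settings. The overexpression difference minus the shCDCA7 difference was 1.15 ± 0.28 (log2 scale, SE). The difference between the lines was not tested, since it holds the KYSE180 values that led to the choice of the family. KYSE180 control replicate 2 had the lowest PER2 of its group, and without it the value was 0.88. With 0.1 in place of 1 added to FPKM, or by limma-voom, it was 1.67 and 1.75.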

How the results depend on the processing

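As a description of the KYSE180 values, which led to the choice of the family, 5 of 9 members lay past the threshold. The count was 0 with no filter on low reads, where limma-trend called 3 of 31719 genes, and 5 by limma-voom with the filter. It was 2 with a replicate block and between 2 and 6 with 1 library left out (2 without any 1 overexpression replicate or without control replicate 1). Nothing is read from these KYSE180 member counts. Genes called in all, 1447, numbered 22, 209 and 19 without overexpression replicates 1, 2 and 3, 87 without control replicate 1, 2202 without control replicate 2 and 2335 without control replicate 3. In KYSE150, 4 members were called, 2 with no filter, 2 with a replicate block, and between 2 and 6 with 1 library left out. Under the block PER1 and NR1D1 were the 2 members called in KYSE150, and the same 2 lay past the threshold in the KYSE180 description. Same-numbered libraries deviated with correlations of -0.08, -0.07 and 0.07 in KYSE180 and 0.01, -0.07 and -0.07 in KYSE150. These values show no shared deviation of same-numbered libraries, but cannot show whether they were handled together. Between the native lines 6 of 9 members, PER1 counted, lay past the threshold, where 58.0% of all tested genes were called. PER1 is counted there as a description only, since the KYSE180 controls entered the comparison by which it was noticed. The native count was 6 or 7 under every alternative run, the block (6) included. The cause of these shifts was not tested.

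The sign turned for CRY1 in KYSE150 under library totals (-0.0305), for CLOCK there under library totals (-0.0335) and with 1 library left out (between -0.11 and 0.37), and for PER2 between native lines with 0.1 added (-0.000606), by limma-voom (-0.00337) and with 1 library left out (between -0.17 and 0.30). In KYSE180 it turned for PER3 without control replicate 2 (-0.0552) and for CLOCK without overexpression replicate 1 (0.0134). None of these was called. The overexpression difference minus the shCDCA7 difference, which carries no test, also changed sign. It kept its sign in 13 of 18 alternatives for NR1D2 (between -0.07 and 0.23) and in 14 for PER3 (between -0.19 and 0.26). For CLOCK it kept its sign in 17 of 18 (between -0.46 and 0.009). Depth limits PER3 in KYSE150 most.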
